A study of Mus musculus with 3 samples.

Results

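Lin28a, Lin28b, Hmga2, Igf2bp1, Igf2bp2 and Igf2bp3, which are named among the genes that mark early progenitors, were followed across the cell classes of the mouse dorsal telencephalic midline. They are 6 of the 27040 gene features that all 3 libraries listed. They were taken by Ensembl identifier from a list of names, which was chosen with earlier results of these data known. The single-cell RNA of the cortical hem region was read with 10x Genomics 3′ chemistry, in which each captured transcript carries a unique molecular identifier (UMI). The Gmnc-/- knockout library came from 4 embryos at E12.5. The 2 wild-type libraries came from 1 suspension that mixed 4 E12.5 Wnt3aCre;Rosa26tdTomato embryos with 4 E11.5 PGKCre;Rosa26YFP embryos, so that they are technical repeats. The mice were C57BL/6J. Wild-type cells with a dtTomato UMI and no eYFP UMI are called dtTomato-only, and those with an eYFP UMI and no dtTomato UMI are called eYFP-only. Wnt3a-driven Cre marks the hem lineage, whereas Pgk-driven Cre marks cells broadly, so stage, Cre line and lineage cannot be told apart between these groups. Knockout cells carry no reporter, and genotype, suspension and library cannot be told apart either.

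Lin28a and Lin28b are RNA-binding proteins that block the maturation of the let-7 microRNAs in early embryonic cells. As Lin28 declines, let-7 accumulates and binds matching sites in the 3′ UTRs of growth genes. Hmga2 is a chromatin protein of the high mobility group that keeps young neural stem cells dividing, and it is a classic let-7 target. Igf2bp1, Igf2bp2 and Igf2bp3 bind messenger RNAs and affect their stability, transport and translation, and they too decline in the brain as development proceeds. Gmnc encodes a coiled-coil regulator of multiciliated cell formation.

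The let-7 seed and its matches in the members are shown because they are the sequence feature that ties Hmga2 and the Igf2bp genes to Lin28. Of 11 let-7 and miR-98 names in RefSeq (GRCm38.p6), 10 share the seed GAGGUAG, and let-7j has another last seed base. Mature forms are given 5′ to 3′ with bases 2 to 8 in capitals, let-7a from chr13:48538239-48538260 (minus strand), let-7g from chr9:106178846-106178867 (plus strand) and miR-98 from chrX:151913229-151913250 (plus strand).
mmu-let-7a-5p: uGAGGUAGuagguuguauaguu
mmu-let-7g-5p: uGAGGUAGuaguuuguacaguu
mmu-miR-98-5p: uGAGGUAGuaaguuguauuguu

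The complement of that seed, CTACCTC, was counted on the transcript strand of the longest annotated 3′ UTR of each gene (GENCODE vM21, GRCm38). All 6 members held it, against 9.06% of 20936 genes with a 3′ UTR. Hmga2 held 4 matches in 3014 bases, and 1 of 2776 other 3′ UTRs at least as long held as many over the same length from the stop codon. Lin28b held 4 in 4445 bases, a number reached by 2 of 1092 such 3′ UTRs. Igf2bp1 held 4 in 6337 bases, a number reached by 0 of 375. The other members were closer to ordinary long 3′ UTRs. Lin28a held 2 in 2775 bases, a number reached by 1.70% of 3′ UTRs of that length or more. Igf2bp2 held 1 in 1784 bases, as did 10.7% of such 3′ UTRs, and Igf2bp3 held 1 in 2119 bases, as did 12.6%. A match is a description of the letters and not a measured site, and let-7 itself was not measured here. The 4 Hmga2 matches and 1 match of each of the other 5 members are printed as windows of 30 bases with the match in capitals, all from the minus strand of GRCm38. The Hmga2 windows lie at chr10:120364223-120364252, chr10:120362986-120363015, chr10:120362548-120362577 and chr10:120361690-120361719. Those of Lin28b, Lin28a, Igf2bp1, Igf2bp2 and Igf2bp3 lie at chr10:45381021-45381050, chr4:134005188-134005217, chr11:95961777-95961806, chr16:22059472-22059501 and chr6:49086786-49086815.
Hmga2 match 1: gggggcgccgacattcaatttCTACCTCag
Hmga2 match 2: aataatccccactcctcaataCTACCTCtg
Hmga2 match 3: gacttcctgatttgcaaggaaCTACCTCca
Hmga2 match 4: ttgtacaatcaaaacacactaCTACCTCtt
Lin28b: cccttcacccgggcgggaagtCTACCTCat
Lin28a: tggagtgcacagcctgttgaaCTACCTCat
Igf2bp1: ggcagtgctgtgcgaagtaaaCTACCTCaa
Igf2bp2: agaaaaacacacaaataaaagCTACCTCag
Igf2bp3: taaacgtgcatttttactcaaCTACCTCag

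All 6 genes lie on the minus strand. Lin28a spans chr4:134003330-134018841, Lin28b chr10:45376620-45486395, Hmga2 chr10:120361275-120476469, Igf2bp1 chr11:95957163-96005940, Igf2bp2 chr16:22059009-22163299 and Igf2bp3 chr6:49085223-49214957. Hmga2 overlaps 9230105E05Rik and 1700006J14Rik on the opposite strand, and Igf2bp3 overlaps the coding gene Malsu1 there. No label or header states a strand setting. Cell Ranger, which the headers name, by default counts reads of this chemistry on the sense strand only, and the feature lists hold 9230105E05Rik and Malsu1 as genes of their own.

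After filtering, 12884 knockout cells and 8499 and 7479 wild-type cells were used, with median depths of 8672 UMIs in the knockout and 11658 and 12821 UMIs in the wild type. The wild-type libraries shared 1914 barcodes, in which the smaller copy held a median of 2.33% of the UMIs of the larger, and copies with under 10% of the UMIs of the larger were removed. Knockout and wild-type libraries shared 78 and 42 barcodes. Reporters sorted the wild-type cells into 1729 dtTomato-only cells (10.8%), 9975 eYFP-only cells (62.4%) and 3896 with neither reporter (24.4%). Classes were named from markers after clustering without the 6 members, and they were hem progenitor-like, choroid plexus-like, intermediate progenitor-like, Cajal-Retzius-like, pallial progenitor-like and other neurons, with mesenchyme-like, microglia-like and erythroid-like cells beside them. In hem progenitor-like cells 8 of 9 hem markers exceeded 1 CPM (UMIs of a gene per 1000000 UMIs of the class) in each group, and 1 had no UMI. In Cajal-Retzius-like cells all 8 markers did so in each group, but they also did in each group of intermediate progenitor-like cells. The same marker lists had named the classes, so these counts do not check the names. The sub-clusters holding nearly all knockout Cajal-Retzius-like cells and those holding the wild-type ones were different. Some dtTomato-only cells are thinly supported, since a lone dtTomato UMI placed 351 of the 425 pallial progenitor-like cells, 31 of the 33 other neurons and 61 of the 120 intermediate progenitor-like cells in that group. A lone eYFP UMI likewise placed 819 of the 9975 eYFP-only cells. Of 971 wild-type cells with at least 3 dtTomato UMIs, 128 (13.2%) also held eYFP. Of those with at least 3 eYFP UMIs, 1.29% also held dtTomato. How many E12.5 cells fell into the eYFP-only group was not tested. Gmnc itself was measured in knockout cells. It stood at 31.8 CPM in knockout against 16.2 CPM in dtTomato-only hem progenitor-like cells, and in choroid plexus-like cells at 199 CPM in the knockout against 68.3 CPM in dtTomato-only cells. It was level in intermediate progenitor-like cells, at 203 CPM in the knockout against 206 CPM in dtTomato-only cells, and lower in Cajal-Retzius-like cells, at 88.5 CPM in the knockout against 226 CPM in dtTomato-only cells. Where its tags lie relative to the deleted part was not analysed here, so these levels do not check the genotype label.

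Blood cells gave a separate reading of stage, because erythroid cells replace embryonic globins with later ones as gestation proceeds. In the erythroid cluster shared by both genotypes, later globins made up 29.2% of globin UMIs in 97 knockout cells. They made up 14.2% in 10 dtTomato-only cells, all with a lone dtTomato UMI and so no sure reading of blood from the dtTomato embryos, 14.5% in 191 eYFP-only cells and 14.3% in 155 wild-type cells with neither reporter. The knockout share lay above those of all 3 wild-type groups, and the wild-type cells without a reporter had nearly the same make-up as the eYFP-only cells. Wild-type blood therefore gave no second reading that could be set against the label E12.5. Wild-type E12.5 embryos younger than labelled or giving little of the blood, and knockout embryos older than labelled, cannot be told apart. The wild-type groups are called below by their reporters.

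**Figure D1:**
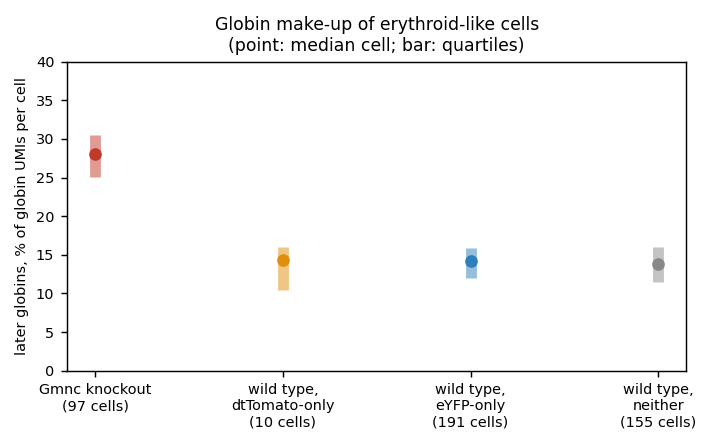
Share of later globins among globin UMIs per erythroid cell (vertical axis, percent) in the erythroid cluster found in both genotypes, by group; points are medians over cells and thick bars run over the middle quartiles. The knockout median of 28.0% lies above the wild-type medians of 14.3% (dtTomato-only), 14.1% (eYFP-only) and 13.8% (neither reporter).

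Erythroid cells give a level for member UMIs outside neural cells. In knockout cells of the shared erythroid cluster Hmga2 stood at 4.41 CPM, Igf2bp1 at 1.89 CPM, Igf2bp2 at 3.15 CPM, Igf2bp3 at 7.55 CPM and Lin28b at 0.629 CPM. In its eYFP-only cells Hmga2 stood at 8.16 CPM, Igf2bp1 at 4.23 CPM, Igf2bp2 at 2.42 CPM, Igf2bp3 at 6.95 CPM and Lin28b at 0.302 CPM. A second erythroid cluster, filled by 151 of the 248 knockout erythroid-like cells, stood higher, at 97.8 CPM for Hmga2, 55.5 CPM for Igf2bp1, 33.0 CPM for Igf2bp2, 53.7 CPM for Igf2bp3 and 5.97 CPM for Lin28b. Over all erythroid-like cells Hmga2 had 58.4 CPM in the knockout and 8.49 CPM in the wild type. Wild-type neurons, with Hmga2 near 20 CPM, lie above the wild-type erythroid level. Knockout intermediate progenitor-like cells (24.7 CPM) and knockout neurons (18.0 and 15.9 CPM) lie under the pooled knockout level of 58.4 CPM. They lie above the 4.41 CPM of the shared erythroid cluster in the knockout. Hmga2 in hem, choroid plexus and pallial progenitor-like cells lies above the erythroid level in both genotypes. Whether the erythroid UMIs are the cells' own, are free RNA or come from other cells caught in the same droplets was not tested.

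Among wild-type classes, Hmga2 was the member with the steepest order. It stood at 502 and 504 CPM in the 2 wild-type libraries in pallial progenitor-like cells, at 203 and 202 CPM in hem progenitor-like cells and at 160 and 147 CPM in choroid plexus-like cells. Intermediate progenitor-like cells, the dividing daughters committed to neurons, had 61.5 and 62.8 CPM. Cajal-Retzius-like cells, the early-born neurons that the hem makes, had 18.9 and 26.2 CPM. Other neurons had 16.9 and 22.1 CPM, and their interval overlapped that of the Cajal-Retzius-like cells, while each step between the neural progenitor classes was larger than the counting error. Pooled over both libraries, Hmga2 was 2.48-fold higher in pallial than in hem progenitor-like cells (95% interval 2.43 to 2.54). It was 3.26-fold lower in intermediate than in hem progenitor-like cells, and 8.95-fold lower in Cajal-Retzius-like than in hem progenitor-like cells. Mesenchyme-like cells stood second at 275 CPM, so that a high Hmga2 level was not confined to neural progenitors.

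A gene was called higher or lower when it differed at least 1.5-fold in the same direction in each wild-type library, among genes with at least 50 UMIs over both sides and at least 20 CPM on the higher side. In these class comparisons 4 of the 6 members passed that filter, namely Hmga2 and the Igf2bp genes. Of them, 1 of 4 was called higher in pallial over hem progenitor-like cells, which was Hmga2, against 14.6% of all genes tested in either direction. Hmga2 was likewise the 1 called lower in intermediate over hem progenitor-like cells, where 15.1% of genes were lower, and the 1 called lower in Cajal-Retzius-like over hem progenitor-like cells, where 18.6% were lower. No member was called between choroid plexus-like and hem progenitor-like cells, against 19.2% of genes in either direction.

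The Igf2bp genes were flatter across the neural classes. Igf2bp1 ranged over the 6 neural classes of pooled wild-type cells from 145 CPM in choroid plexus-like cells to 230 CPM in intermediate progenitor-like cells. Its order put intermediate progenitor-like cells first, pallial progenitor-like cells next at 204 CPM and hem progenitor-like cells at 190 CPM, with no overlap between these neighbours, so that it did not drop at the intermediate step as Hmga2 did. Igf2bp2 ranged from 65.3 CPM in Cajal-Retzius-like cells to 104 CPM in pallial progenitor-like cells. Igf2bp3 ranged from 96.0 CPM in intermediate progenitor-like cells to 118 CPM in pallial progenitor-like cells, and its neighbours among the neural classes overlapped. In microglia-like cells, which numbered 68 in the wild type, Hmga2, Igf2bp1 and Igf2bp2 were called lower than in hem progenitor-like cells, where 37.5% of genes were lower. Hmga2 stood at 38.6 CPM and Igf2bp1 at 109 CPM in these cells. Hmga2 differed there between the 2 libraries, at 10.7 and 65.0 CPM, so its microglial level is loose.

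The Lin28 genes were scarce. Lin28b had 4.49 and 5.22 CPM in hem progenitor-like cells of the 2 wild-type libraries, 6.84 and 7.94 CPM in intermediate progenitor-like cells and 5.43 and 7.13 CPM in Cajal-Retzius-like cells. Pooled levels over the 6 neural classes lay between 4.08 and 9.01 CPM, and each class overlapped its neighbour in the order. Lin28a, the paralog typical of pluripotent cells, was at or near the floor of counting. It reached at most 2.09 CPM in any wild-type class, and in hem progenitor-like cells it had 3 UMIs in the knockout, 2 UMIs in dtTomato-only and 5 UMIs in eYFP-only cells. No fold is given for Lin28a.

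**Figure D2:**
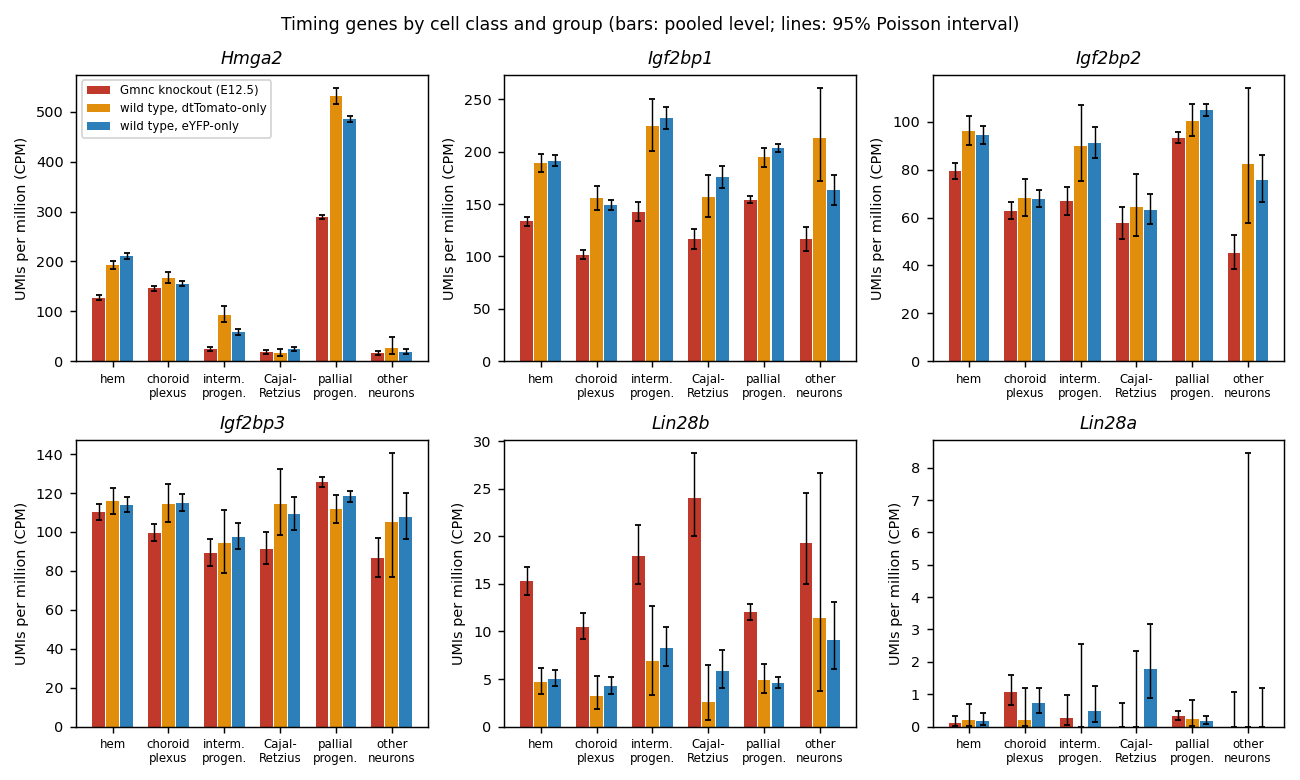
Level of each member (vertical axes, CPM, each panel with its own scale) in 6 cell classes for Gmnc knockout, dtTomato-only wild-type and eYFP-only wild-type cells; bars are pooled levels and lines 95% Poisson intervals. Hmga2 steps down from pallial progenitor-like cells to neurons in each group, the Igf2bp genes are flatter, and Lin28b is higher in the knockout in each class.

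The first comparison asked whether the members differ between the reporter groups that stand for E12.5 and E11.5 in the wild type. No member was called in any of the 6 neural classes: 0 of the 24 pairs of member and class that passed the filter, of 36 in all. The background was equally quiet in progenitors, with 0.14% of genes called in either direction in hem progenitor-like cells, 0.165% in choroid plexus-like cells and 0.0833% in pallial progenitor-like cells. It was 2.2% in intermediate progenitor-like cells, 1.09% in Cajal-Retzius-like cells and 4.94% in other neurons. The members' median log2 fold was -0.02 in hem progenitor-like, 0.01 in choroid plexus-like, -0.05 in intermediate progenitor-like and -0.07 in Cajal-Retzius-like cells, beside medians of all genes tested of 0.00 in each class at 2 decimals.

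Hmga2, the progenitor chromatin factor, had 199 and 187 CPM in dtTomato-only hem progenitor-like cells of libraries 1 and 2, against 210 and 213 CPM in eYFP-only cells. Both dtTomato-only values lay under both eYFP-only values, with a pooled fold of 0.914 (95% interval 0.868 to 0.962). In pallial progenitor-like cells Hmga2 had 547 and 518 CPM in dtTomato-only cells, against 480 and 492 CPM in eYFP-only cells. The order there was the opposite one, with a fold of 1.10 (1.06 to 1.13). In choroid plexus-like cells it had 176 and 159 CPM in dtTomato-only cells, against 162 and 149 CPM in eYFP-only cells, and the groups overlapped.

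Intermediate progenitor-like cells held the widest Hmga2 difference between reporter groups whose interval left out 1. Hmga2 had 97.5 and 86.5 CPM in dtTomato-only cells, against 58.4 and 58.5 CPM in eYFP-only cells, from 80 and 54 against 230 and 251 UMIs. The pooled fold was 1.59 (1.30 to 1.92), and it was not called because library 2 alone stayed under 1.5-fold. With at least 2 UMIs of one reporter required, which leaves out the 61 dtTomato-only cells with a lone UMI, the log2 fold of 0.66 was 0.62. Of the late progenitor genes, a list described below for the knockout, 3 of 7 tested were called higher in the same dtTomato-only cells, where 0.844% of all genes were higher, with a list median of 0.17. Sox9, a transcription factor of neural stem cells, stood at 78.9 CPM in dtTomato-only against 34.0 CPM in eYFP-only cells, Fabp7, a lipid-binding protein of radial glia, at 358 CPM in dtTomato-only against 189 CPM in eYFP-only cells, and the Notch target Hes5 at 205 CPM in dtTomato-only against 92.1 CPM in eYFP-only cells. The hem ligand Wnt3a stood at 25.6 CPM in dtTomato-only against 6.81 CPM in eYFP-only cells. The summed level of 7 neural progenitor markers was 2453 CPM in dtTomato-only against 2090 CPM in eYFP-only cells, and that of 8 pallial progenitor markers 1921 CPM in dtTomato-only against 2040 CPM in eYFP-only cells. The part of these genes in the Hmga2 difference was not tested, and its log2 fold was 0.11 with a stricter cell filter and 0.21 with coarser or with finer clusters. Within its clusters Hmga2 had 125 CPM in dtTomato-only against 64.3 CPM in eYFP-only cells of cluster 12, 46.7 CPM in dtTomato-only against 39.7 CPM in eYFP-only cells of cluster 14, and 116 CPM in dtTomato-only against 89.6 CPM in eYFP-only cells of cluster 17.

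The Igf2bp genes did not differ beyond counting error between the reporter groups. In hem progenitor-like cells Igf2bp1 had 186 and 193 CPM in dtTomato-only cells, against 195 and 188 CPM in eYFP-only cells. Igf2bp2 had 96.2 and 96.1 CPM in dtTomato-only cells, against 92.9 and 95.9 CPM in eYFP-only cells. Igf2bp3 had 114 and 118 CPM in dtTomato-only cells, against 113 and 114 CPM in eYFP-only cells. Over the 3 genes and the hem, choroid plexus, intermediate progenitor, Cajal-Retzius and pallial classes, the 15 folds ran from 0.895 to 1.05 and all 15 intervals held 1. In other neurons, with 33 dtTomato-only cells of which 31 had a lone dtTomato UMI, Igf2bp1 had 206 and 219 CPM in dtTomato-only cells, against 153 and 173 CPM in eYFP-only cells, a fold of 1.31 (1.03 to 1.63). Lin28b had 3.87 and 5.52 CPM in dtTomato-only hem progenitor-like cells, against 4.99 and 5.07 CPM in eYFP-only cells, and its fold of 0.925 (0.652 to 1.29) shows no direction at this depth.

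**Figure D3:**
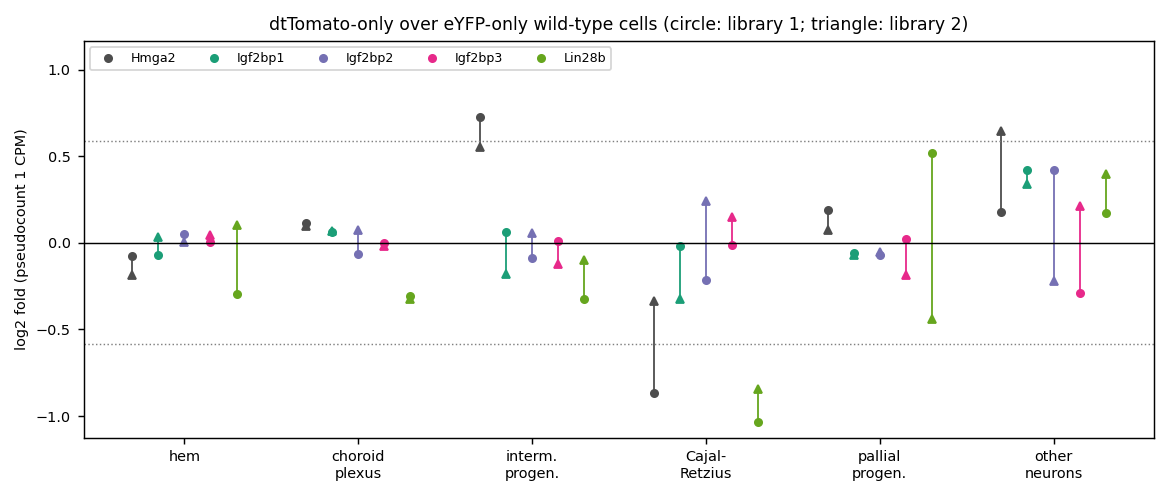
Log2 fold of dtTomato-only over eYFP-only wild-type cells (vertical axis, pseudocount 1 CPM) for 5 members in 6 cell classes, with circles for library 1, triangles for library 2 and dotted lines at 1.5-fold. The Igf2bp genes sit near 0 in the progenitor classes, Hmga2 lies above 0 in intermediate progenitor-like cells, and the low counts of Lin28b spread widely.

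Among genes of the pathway around the members, 1 was called in hem progenitor-like cells. Of the genes of let-7 processing that passed the filter, 0 of 12 were called there. Of let-7 targets, 1 of 13 was called there, which was Ccnd1, a cyclin of G1 progression, at 24.4 CPM in dtTomato-only against 41.2 CPM in eYFP-only cells (fold 0.594, 0.516 to 0.681). Of late progenitor genes, 0 of 10 were called in hem progenitor-like cells, with a median log2 fold of 0.17, beside 0.00 over all genes tested.

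The second comparison set the knockout against the dtTomato-only wild-type cells, the group with the same stage label. Blood gave no check that these groups were of the same age, so embryo age and genotype cannot be told apart either. Hmga2 and Igf2bp1 were lower in the knockout in most classes and Lin28b was higher. Igf2bp3 moved less, with folds from 0.799 to 1.13 that took no common direction. Of the 4 members that passed the filter in each class, calls were made for Hmga2 in intermediate and pallial progenitor-like cells, Igf2bp1 in other neurons and Lin28b in Cajal-Retzius-like cells. In hem and choroid plexus-like cells 0 of 4 were called. The share of all genes called in either direction was 14.9% in hem progenitor-like, 20.9% in choroid plexus-like, 17.7% in intermediate progenitor-like, 32.3% in Cajal-Retzius-like and 16.7% in pallial progenitor-like cells and 20.2% in other neurons, so 1 call among 4 members is near the background. Across classes, of 8794 genes with at least 50 UMIs in each of the 6, 3.48% were at least 1.5-fold higher in the knockout than in all wild-type cells in each class and 2.24% at least 1.5-fold lower. The knockout matrix was also written by another Cell Ranger version with another feature list, and the part of this in the differences was not tested. Class make-up differed as well. Choroid plexus-like cluster 15 held 304 and 287 wild-type cells and 0 knockout cells. Pallial progenitor-like cluster 7 held 1263 knockout cells against 65 and 59 wild-type cells. Intermediate progenitor-like cluster 12 held 537 knockout cells against 213 and 182 wild-type cells, and cluster 24 held 13 against 53 and 47. The part of this make-up in the pooled class folds was not tested.

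Erythroid RNA moved with the knockout in each class measured for it. The summed level of 8 erythroid markers was 1986 CPM in the knockout against 238 CPM in dtTomato-only hem progenitor-like cells, and 5630 CPM in the knockout against 224 CPM in dtTomato-only choroid plexus-like cells. It was 2580 CPM in the knockout against 271 CPM in dtTomato-only intermediate progenitor-like cells, and 4100 CPM in the knockout against 1159 CPM in dtTomato-only Cajal-Retzius-like cells. In these classes 7 or 8 of the 8 markers exceeded 1 CPM in the knockout and 6 or 7 in dtTomato-only cells, where 1 marker had no UMI in intermediate progenitor-like cells. Lin28b stood at 0.629 and 5.97 CPM in the 2 knockout erythroid clusters. The part of erythroid RNA in the member differences, that of Lin28b included, was not tested.

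Hmga2 showed the largest decrease in intermediate progenitor-like cells. It had 24.7 CPM in 1019 knockout cells, against 97.5 and 86.5 CPM in dtTomato-only and 58.4 and 58.5 CPM in eYFP-only cells of the 2 libraries. The knockout level lay below all 4 wild-type values. The fold was 0.267 (95% interval 0.212 to 0.336) over dtTomato-only and 0.423 (0.355 to 0.502) over eYFP-only cells. After each cell was thinned to 4000 UMIs, Hmga2 was detected in 6.60% of knockout, 24.2% of dtTomato-only and 17.2% of eYFP-only intermediate progenitor-like cells. Unthinned, the shares were 13.1% of knockout (median depth 6456 UMIs), 46.7% of dtTomato-only (10670 UMIs) and 34.3% of eYFP-only cells (10050 UMIs). In erythroid cells the thinned share was 15.5% in the knockout, where an erythroid cluster filled almost only by knockout cells carried Hmga2 at 97.8 CPM, and 3.65% in eYFP-only cells, so in the knockout neither the share nor the level of 24.7 CPM in intermediate progenitor-like cells is above that of its erythroid-like cells, whose pooled level was 58.4 CPM. The knockout cells of the shared erythroid cluster had Hmga2 at 4.41 CPM. Hes5 and Fabp7 were lower beside it in the same knockout cells, with Hes5 at 59.6 CPM in the knockout against 205 CPM in dtTomato-only cells and Fabp7 at 182 CPM in the knockout against 358 CPM in dtTomato-only cells. Wnt3a stood at 2.81 CPM in the knockout against 25.6 CPM in dtTomato-only cells. The part of these genes in the Hmga2 difference was not tested. With at least 2 UMIs of one reporter required the log2 fold of -1.87 was -1.84. It moved to -0.70 with coarser clusters and to -0.94 with a stricter cell filter.

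In pallial progenitor-like cells Hmga2 had 290 CPM in the knockout, against 547 and 518 CPM in dtTomato-only and 480 and 492 CPM in eYFP-only cells. The knockout stood well below each wild-type value, with a fold of 0.544 (0.527 to 0.562) over dtTomato-only and 0.596 (0.586 to 0.607) over eYFP-only cells, where 8.04% of genes were lower. In hem progenitor-like cells Hmga2 had 127 CPM in the knockout, against 199 and 187 CPM in dtTomato-only and 210 and 213 CPM in eYFP-only cells. The fold was 0.660 (0.624 to 0.698) over dtTomato-only cells, short of a call by library 2, and it was called at 0.604 (0.578 to 0.630) over eYFP-only cells, where 7.09% of genes were lower. In choroid plexus-like cells the decrease was small, at 146 CPM in the knockout against 176 and 159 CPM in dtTomato-only cells (0.874, 0.808 to 0.947). In Cajal-Retzius-like cells Hmga2 had 18.0 CPM in the knockout, against 16.5 CPM in dtTomato-only cells (9 and 17 UMIs in the 2 libraries) and 20.9 and 28.8 CPM in eYFP-only cells, and the fold over dtTomato-only cells of 1.09 (0.698 to 1.75) shows no direction. The order of the 6 neural classes changed at 1 place, since in the knockout choroid plexus-like cells lay above hem progenitor-like cells, with intervals of 141 to 152 and 123 to 132 CPM for Hmga2. Outside them, mesenchyme-like cells (326 CPM in the knockout) lay above pallial progenitor-like cells and erythroid-like cells above intermediate progenitor-like cells in the knockout, both the reverse of the wild type. Microglia-like cells had 26.0 CPM in the knockout, near the 24.7 CPM of intermediate progenitor-like cells.

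The Hmga2 decrease also stood within single clusters that both genotypes filled. In hem cluster 2 it was 140 CPM in the knockout, against 207 CPM in dtTomato-only and 226 CPM in eYFP-only cells. In hem cluster 3 it was 99.2 CPM in the knockout, against 164 CPM in dtTomato-only and 183 CPM in eYFP-only cells. In pallial cluster 0 it was 174 CPM in the knockout, against 398 CPM in dtTomato-only and 405 CPM in eYFP-only cells. The pallial clusters 1 and 9 showed a gap in the same direction. In cluster 1 it was 236 CPM in the knockout, against 565 CPM in dtTomato-only and 425 CPM in eYFP-only cells, and in cluster 9 it was 299 CPM in the knockout, against 682 CPM in dtTomato-only and 606 CPM in eYFP-only cells. Choroid plexus cluster 11 had the smallest gap, at 183 CPM in the knockout against 193 CPM in dtTomato-only and 203 CPM in eYFP-only cells.

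**Figure D4:**
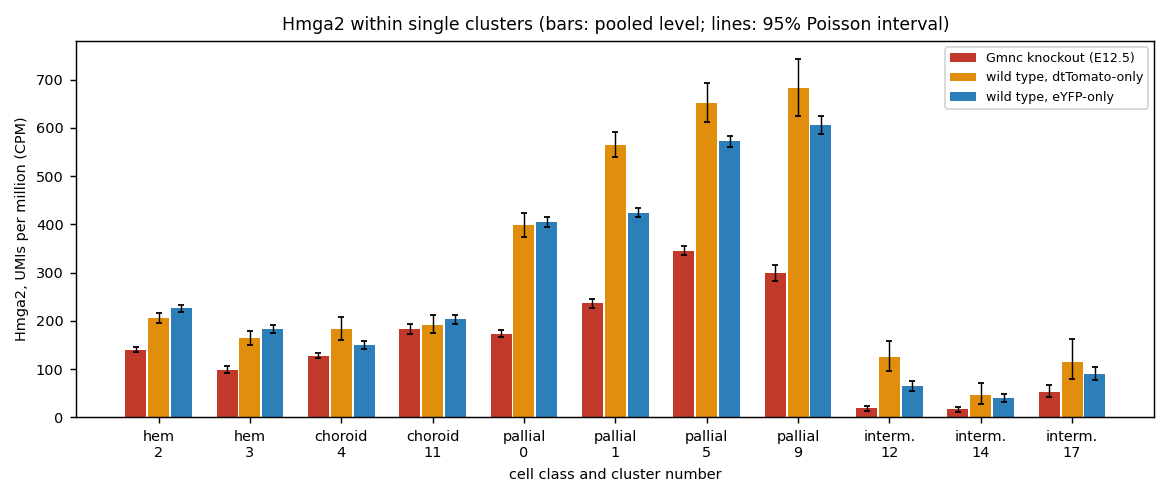
Hmga2 level (vertical axis, CPM) within single clusters of the hem, choroid plexus, pallial and intermediate progenitor-like classes for Gmnc knockout, dtTomato-only and eYFP-only wild-type cells; bars are pooled levels and lines 95% Poisson intervals. The knockout bar is the lowest in each cluster shown, with the smallest gap in choroid plexus cluster 11 (183 CPM in the knockout, 193 CPM in dtTomato-only and 203 CPM in eYFP-only cells).

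Igf2bp1, which shields target messenger RNAs from decay, was lower in the knockout in all 6 neural classes. In hem progenitor-like cells it had 133 CPM in the knockout, against 186 and 193 CPM in dtTomato-only and 195 and 188 CPM in eYFP-only cells. In intermediate progenitor-like cells it had 143 CPM in the knockout, against 236 and 210 CPM in dtTomato-only and 226 and 238 CPM in eYFP-only cells. In both classes the knockout value lay below each wild-type value. The 6 folds over dtTomato-only cells ran from 0.547 in other neurons to 0.794 in pallial progenitor-like cells, and no interval held 1. Only the first of these was called, at 116 CPM in the knockout against 206 and 219 CPM in dtTomato-only cells, and it rests on the 33 dtTomato-only cells of which 31 had a lone dtTomato UMI. The 6 folds over eYFP-only cells ran from 0.615 to 0.758, with the call in intermediate progenitor-like cells, where 9.55% of genes were lower. Thinned to 4000 UMIs, Igf2bp1 was found in 38.5% of knockout, 49.5% of dtTomato-only and 52.7% of eYFP-only hem progenitor-like cells.

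Igf2bp2 and Igf2bp3 differed less. Igf2bp2 had 79.4 CPM in knockout hem progenitor-like cells, against 96.2 and 96.1 CPM in dtTomato-only and 92.9 and 95.9 CPM in eYFP-only cells. Its 6 folds over dtTomato-only cells ran from 0.550 in other neurons to 0.929, and 2 of the intervals held 1. Igf2bp3 had 110 CPM in knockout hem progenitor-like cells, against 114 and 118 CPM in dtTomato-only and 113 and 114 CPM in eYFP-only cells. Its folds ran from 0.799 in Cajal-Retzius-like to 1.13 in pallial progenitor-like cells, and 3 of 6 intervals held 1. The paralogs did not move by a common factor, with Igf2bp1 the lowest of the 3 relative to dtTomato-only cells in hem progenitor-like cells, at 0.705 (0.667 to 0.746) against 0.825 (0.765 to 0.891) for Igf2bp2.

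Lin28b, the block on let-7 maturation, was the member that was higher in the knockout. In hem progenitor-like cells it had 15.3 CPM in the knockout (400 UMIs), against 3.87 and 5.52 CPM in dtTomato-only cells (21 and 27 UMIs) and 4.99 and 5.07 CPM in eYFP-only cells. The fold was 3.28 (2.43 to 4.52) over dtTomato-only cells, and the gene stayed under the 20 CPM needed for a call. In Cajal-Retzius-like cells it had 24.1 CPM in the knockout (123 UMIs), against 2.44 and 2.65 CPM in dtTomato-only cells (2 UMIs in each library) and 6.06 and 5.57 CPM in eYFP-only cells. It passed the filter there through the knockout level alone, so its call is a description, with a fold of 9.46 (3.60 to 35.3) over dtTomato-only and 4.15 (2.84 to 6.19) over eYFP-only cells, where 11.9% of genes were called higher. In the Cajal-Retzius-like class the median log2 ratio of knockout over dtTomato-only cells was -0.20, over genes with UMIs on both sides. Another scaling subtracts this median, which raises the log2 fold of each gene there, the Igf2bp genes included. The folds over dtTomato-only cells were 3.27 (1.94 to 5.94) in choroid plexus-like, 2.59 (1.36 to 5.52) in intermediate progenitor-like and 2.45 in pallial progenitor-like cells, and 1.69 (0.689 to 5.37) in other neurons, where the interval held 1. Over eYFP-only cells the 6 folds ran from 2.13 to 4.15. Higher Lin28b was not confined to neural classes. Against all wild-type cells it had 7.40 CPM in knockout and 1.44 CPM in wild-type mesenchyme-like cells, from 13 and 3 UMIs (fold 5.15, 1.42 to 28.2). In erythroid-like cells it had 3.72 CPM in the knockout and 0.157 CPM in the wild type, from 14 UMIs and 1 UMI. In microglia-like cells the interval held 1 (fold 1.66, 0.739 to 3.85).

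Detection of Lin28b followed the same order. Thinned to 4000 UMIs it was found in 5.03% of knockout, 1.83% of dtTomato-only and 2.06% of eYFP-only hem progenitor-like cells, and in 10.0% of knockout, 0.578% of dtTomato-only and 2.08% of eYFP-only Cajal-Retzius-like cells. Unthinned, the hem shares were 16.1% of knockout, 6.69% of dtTomato-only and 6.22% of eYFP-only cells. The unthinned Cajal-Retzius shares were 18.5% of knockout, 2.26% of dtTomato-only and 4.79% of eYFP-only cells. In erythroid cells the thinned share was 2.10% of 238 knockout cells and 0 of 192 eYFP-only cells, which allows a share of up to 1.56%. The knockout shares in hem and Cajal-Retzius-like cells lie above those of blood, while the wild-type shares of 1.83% to 2.08% are close to that limit and the dtTomato-only Cajal-Retzius share of 0.578% lies under it. Knockout sub-clusters of Cajal-Retzius-like neurons varied, with Lin28b at 36.6, 23.6 and 15.5 CPM.

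**Figure D5:**
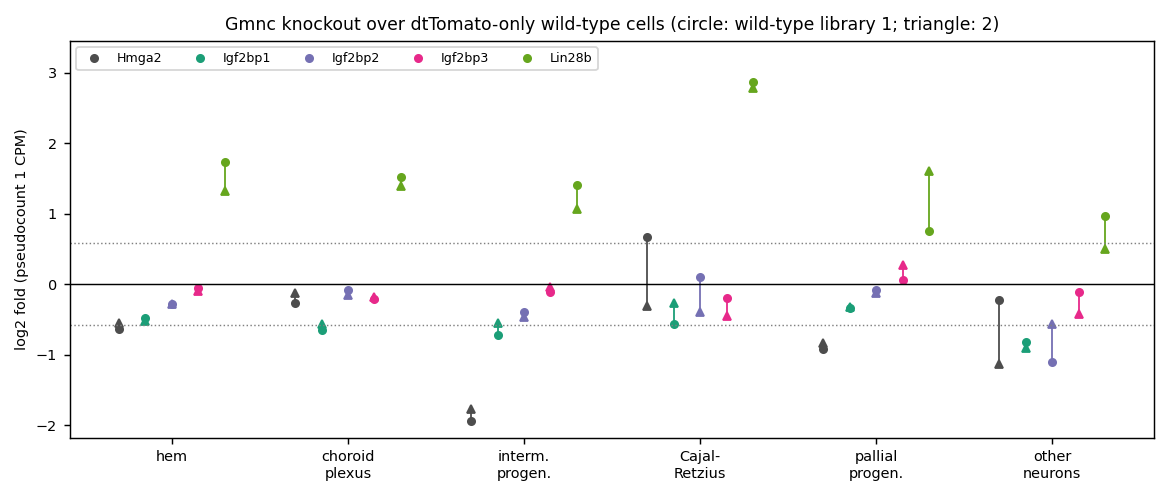
Log2 fold of the Gmnc knockout over dtTomato-only wild-type cells (vertical axis, pseudocount 1 CPM) for 5 members in 6 cell classes, with circles for the fold against wild-type library 1, triangles for library 2 and dotted lines at 1.5-fold. Lin28b lies above 0 in each class, Igf2bp1 below 0 in each class, and Hmga2 is lowest in intermediate progenitor-like cells, at a pooled fold of 0.267.

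Late progenitor genes, which rise as radial glia age, were more often called higher than lower in the knockout in each class with both counts given here. Of all genes tested, 8.54% were called higher in hem progenitor-like, 9.43% in choroid plexus-like, 8.39% in intermediate progenitor-like, 11.6% in Cajal-Retzius-like and 8.94% in pallial progenitor-like cells. Called lower were 6.4% in hem progenitor-like, 9.33% in intermediate progenitor-like, 20.7% in Cajal-Retzius-like and 7.79% in pallial progenitor-like cells. The counts of this and the next lists are read against these shares. In pallial progenitor-like cells 8 of 10 tested were called higher and 0 lower, with a median log2 fold of 0.89 beside -0.06 over all genes tested. They included Aldoc, a glycolytic enzyme of radial glia (122 CPM in the knockout against 31.7 CPM in dtTomato-only cells), the transcription factors Zbtb20 (108 CPM in the knockout against 35.7 CPM in dtTomato-only cells) and Nfia (468 CPM in the knockout against 207 CPM in dtTomato-only cells), and Fabp7 (508 CPM in the knockout against 230 CPM in dtTomato-only cells). In hem progenitor-like cells 4 of 12 were called higher and 0 lower, namely Aldoc (35.5 CPM in the knockout against 6.40 CPM in dtTomato-only cells), Nfia (600 CPM in the knockout against 288 CPM in dtTomato-only cells), Zbtb20 (283 CPM in the knockout against 169 CPM in dtTomato-only cells) and Nfib (828 CPM in the knockout against 498 CPM in dtTomato-only cells). The list's median there was 0.49, beside -0.04 over all genes. In choroid plexus-like cells 4 of 9 were called higher. In intermediate progenitor-like cells 3 of 7 were called higher, which were the nuclear factor I genes Nfia, Nfib and Nfix, and 2 lower, Fabp7 and Hes5. In Cajal-Retzius-like cells 4 of 6 were called higher, with Nfix at 768 CPM in the knockout against 205 CPM in dtTomato-only cells, and 2 lower, with Sox9 at 16.4 CPM in the knockout against 67.4 CPM in dtTomato-only cells.

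Of the let-7 processing genes, 2 of 13 were called higher in hem progenitor-like cells, with a list median of 0.12 beside -0.04 over all genes. They were Tut7, a terminal uridylyltransferase that adds uridines to let-7 precursors (70.7 CPM in the knockout against 31.3 CPM in dtTomato-only cells), and Xpo5, which exports microRNA precursors from the nucleus (31.6 CPM in the knockout against 8.63 CPM in dtTomato-only cells). The same genes were the calls in choroid plexus-like and pallial progenitor-like cells. In Cajal-Retzius-like cells Xpo5 was called higher and Msi1, an RNA-binding protein of neural stem cells, lower, at 62.8 CPM in the knockout against 111 CPM in dtTomato-only cells. Of the 14 let-7 targets tested in hem progenitor-like cells, 0 were called lower, and the list's median was 0.11 beside -0.04 over all genes. In pallial progenitor-like cells Mycn, a growth-promoting transcription factor, was called lower at 70.1 CPM in the knockout against 119 CPM in dtTomato-only cells, the 1 of 13 tested that was lower. None of the 3 let-7 host transcripts could be matched in the feature lists.

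Of the partners of the Igf2bp proteins and the Igf axis, 1 of 8 was called in hem progenitor-like cells, the nuclear RNA-binding protein Hnrnpu, at 562 CPM in the knockout against 307 CPM in dtTomato-only cells. In choroid plexus-like cells 4 of 10 were called higher, including the growth factors Igf1 (29.5 CPM in the knockout against 9.42 CPM in dtTomato-only cells) and Igf2 (28.6 CPM in the knockout against 14.3 CPM in dtTomato-only cells), and 1 lower, the RNA-stabilising Elavl1 (141 CPM in the knockout against 244 CPM in dtTomato-only cells). Of the other high mobility group genes, 1 of 7 was called in hem progenitor-like cells, Hmgn2, at 426 CPM in the knockout against 707 CPM in dtTomato-only cells, and 1 of 7 in pallial progenitor-like cells, Hmgb1, which was higher (fold 1.66). These lists were chosen with earlier results of these data known, and their counts are descriptions.

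The genes most like each member were ranked by Pearson correlation of log2(CPM + 1) over 36 points of class and group, which share libraries and depth, among 9777 genes. Hmga2 was closest to Tcf7l1 (r = 0.949), a repressor of the Wnt pathway, Yap1 (0.929), the effector of Hippo signalling, and Rcn1 (0.922). Igf2bp1 was closest to Ash2l (0.981), a histone methyltransferase subunit, and to Polr2d and Nono (0.980 each). Igf2bp2 was closest to the Wnt receptor Fzd2 (0.979), Tspan6 and B4galt2 (0.974 each), and Igf2bp3 to Atg5 and Utp11l (0.964 each) and Sec61a1 (0.961). Lin28b was closest to Rnf44 (0.904), Cdk17 (0.865) and Lnpep (0.839). Among the members, Igf2bp1 correlated with Igf2bp3 at 0.897 and with Igf2bp2 at 0.859, Hmga2 with Igf2bp2 at 0.620, and Lin28b with Hmga2 at -0.10.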

How the data were processed

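The submitters' processing notes name Cell Ranger 3.1.0 and the mm10 build. Per the file headers, the wild-type matrices were written by Cell Ranger 3.1.0 and the knockout matrix by Cell Ranger 6.0.0. The deposited values are UMI counts, whole numbers per gene and barcode, which the authors did not normalise. The deposited totals were 259403297 UMIs in 20256 knockout barcodes, and 148073906 and 139978761 UMIs in 12426 and 10399 wild-type barcodes. The knockout table lists 32285 features and each wild-type one has 28001, of which 3 are transgenes, and the 27040 in common hold 99.2% of knockout and 99.8% of wild-type UMIs.

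Barcodes with at least 1000 genes, at least 2000 UMIs and at most 10% mitochondrial UMIs were kept. Where a barcode occurred in both wild-type libraries, a copy with under 10% of the other's UMIs was removed, and 21 barcodes were kept in both. A nearest-neighbour doublet score removed 2491 knockout and 938 and 679 wild-type cells, and the true doublet rate is not known. Cells were clustered (Leiden, resolution 1, leidenalg 0.10.2, Python 3.11.15, scikit-learn 1.9.0) without the members and the listed genes. A cluster was named from its marker list at a mean log2 score of at least 1, or 0.7 for pallial progenitors, a threshold set after the data were seen, and 1712 knockout cells stayed unnamed, against 16 and 14 dtTomato-only and 390 and 386 eYFP-only cells. The marker lists used for naming still held some listed genes, among them the late progenitor genes Sox9, Hes5 and Nfib. Names were rebuilt here and may differ from the study's.

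UMIs were summed per class and group and divided by the class total over the common features (CPM). Intervals are exact 95% Poisson, binomial or ratio intervals (scipy 1.17.1) and cover counting error only. With 1 suspension per group no test between groups was possible, and no p-value is given. Log2 folds carry a pseudocount of 1 CPM. A floor is 3 counts. The scaling alternative used edgeR 4.0.16 in R 4.3.3. The calling steps were tested on simulated data. The text names the 6 members, list genes past the fold (at most 6 per list), and the 3 genes most like each member. The members and lists were chosen with earlier results of these data known. Microglial and mesenchymal reporter groups were too small to compare. A result for 1 list gene is not reported here.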

Additional observations from a re-analysis of the deposited data

Results flagged for a closer look

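In 2 members the difference moved one way in both wild-type libraries in 1 class and the opposite way in another, with intervals that left out 1, and the difference between the classes was not tested. For Hmga2 the fold of dtTomato-only over eYFP-only cells was 0.914 in hem progenitor-like cells, 1.59 in intermediate progenitor-like cells and 1.10 in pallial progenitor-like cells. For Igf2bp3 the fold of the knockout over dtTomato-only cells was 0.870 in choroid plexus-like cells, 0.799 in Cajal-Retzius-like cells and 1.13 in pallial progenitor-like cells. Each group has too few samples for a check of single samples that stand apart.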

How the results depend on the processing

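The 4 medians of the members for dtTomato-only over eYFP-only cells and the 4 for the knockout over dtTomato-only cells moved by less than their spread in 121 of the alternatives. They moved further in 2, both with cells thinned to 4000 UMIs, where fewer members pass the minimum of UMIs: to 0.21 for the reporter groups in choroid plexus-like cells and to -0.53 for the knockout in hem progenitor-like cells. Among single members, 570 values stayed within the counting interval of the reported value and 30 moved further. The calls of Hmga2 in intermediate progenitor-like and Lin28b in Cajal-Retzius-like cells kept their direction. The calls in pallial progenitor-like cells and other neurons were not rerun. Uncalled values could change sign, as for Hmga2 in knockout Cajal-Retzius-like cells, whose log2 fold ran from -0.54 to 0.75. The clearest moves were in the knockout over dtTomato-only cells. The log2 fold of Hmga2 in intermediate progenitor-like cells, -1.87 as reported, was -0.70 at resolution 0.5, -0.94 with the stricter cell filter, -1.30 against all wild-type cells and -2.25 thinned. That of Lin28b in Cajal-Retzius-like cells, 2.82 as reported, was 1.78 against all wild-type cells and 1.95 with a pseudocount of 5 CPM. The count of all genes called depends on the fold and the filter. For dtTomato-only over eYFP-only cells it was 9 in hem progenitor-like, 11 in choroid plexus-like, 138 in intermediate progenitor-like and 72 in Cajal-Retzius-like cells. At 2-fold these were 1, 1, 25 and 3, and with no filter on low counts 88, 192, 777 and 593. For the knockout over dtTomato-only cells the counts were 1016, 1482, 1149 and 2220 in the same classes. At 2-fold these were 283, 453, 360 and 1033, and with no filter 2005, 2913, 2386 and 3886. The restriction to clusters with at least 20 cells on each side gave no value for the knockout in Cajal-Retzius-like cells, since no sub-cluster met it. No paired analysis was possible because the 2 wild-type libraries are repeats of 1 suspension and the knockout has 1 library. Depth limits Lin28a in each class and Lin28b in dtTomato-only cells, where 4 UMIs stand behind the Cajal-Retzius-like level.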

Other observations

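Clusters that only the knockout filled carried the members at levels of their own. In 363 Fgf-signalling progenitor-like cells, whose leading genes are Fgf17, Grem1 and Fgf8, Hmga2 stood at 355 CPM, Igf2bp1 at 71.9 CPM and Lin28b at 16.4 CPM. That Hmga2 level is above the pooled knockout pallial level of 290 CPM, while Igf2bp1 is lower than in the 6 neural classes of the knockout, which had 102 CPM or more. The gene 9230105E05Rik, which overlaps Hmga2 on the opposite strand, was among the leading genes of the same cluster. In 112 diencephalic-like cells, led by Olig3 and Wnt3, Hmga2 stood at 186 CPM, Igf2bp1 at 135 CPM and Lin28b at 23.6 CPM.

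A second erythroid cluster was filled by 151 knockout cells and 2 wild-type cells. Its Hmga2 level was 97.8 CPM, while the shared erythroid cluster of the knockout had 4.41 CPM. Its later globins made up 29.6% of globin UMIs, against 29.2% in the shared cluster.

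Wild-type cells with neither reporter were also set against eYFP-only cells. In choroid plexus-like cells 0 members were called, against 0.226% of genes in either direction. The median member log2 fold there was -0.27, with Igf2bp1 at a fold of 0.795 (95% interval 0.728 to 0.867) and Hmga2 at 0.854 (0.786 to 0.927). Over the other neural classes the median ran from -0.14 in hem progenitor-like to 0.15 in Cajal-Retzius-like cells. In mesenchyme-like cells of the knockout, Hmga2 stood at 326 CPM, with a fold of 1.29 (1.11 to 1.49) over eYFP-only cells, and Igf2bp1 at a fold of 0.697 (0.553 to 0.880).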
